A study of Mus musculus with 12 samples.

Results

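The comparison set liver from mice lacking Keap1 in hepatocytes (CKO) against liver from control mice (WT), with both drug treatments pooled. The 6 CKO arrays were all those labelled as conditional knockouts and the 6 WT arrays all those labelled as wild type, so all 12 arrays of the series entered. Treatment was an additive factor, which makes the reported difference the average of the difference under vehicle and the difference under CDDO-Im. CKO mice carried an Albumin-Cre transgene together with 1 floxed and 1 null copy of Keap1 (Albumin-Cre:Keap1(flox/-)). The animals labelled WT also carried the transgene, with a floxed and an intact allele (Alb-Cre:Keap1(flox/+)), so their hepatocytes could lose 1 Keap1 copy. All were male C57BL/6J mice aged 9 weeks. Each received by gavage either vehicle (DMSO, Cremophor-EL and PBS) or 30 umol/kg CDDO-Im, a man-made triterpenoid known as a potent activator of Nrf2, and was killed after 6 h. The 4 groups were WT vehicle, WT CDDO-Im, CKO vehicle and CKO CDDO-Im, with 3 arrays each. Albumin-Cre acts in hepatocytes, whereas the null allele of CKO mice is present in every cell of the body.

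Keap1 is the adaptor that presents the transcription factor Nrf2 (gene Nfe2l2) to a Cul3 ubiquitin ligase, which marks it for breakdown. When Keap1 is missing or its cysteines are modified by electrophiles such as CDDO-Im, Nrf2 accumulates, pairs with a small Maf protein and binds antioxidant response elements. In liver its best known targets reduce quinones and carbonyls, make and conjugate glutathione, supply NADPH and export conjugates.

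Values are log2 signals. Of 18193 genes with at least 1 probe set that names no other gene, 8338 exceeded a log2 signal of 5 on at least 3 arrays and were tested. Arrays within a group correlated between 0.996 and 0.998, and the array medians lay between 2.32 and 2.34. Differences are CKO minus WT on the log2 scale with the standard error (SE) of the fit, n = 6 arrays a genotype, and adjusted p-values are limma's with Benjamini-Hochberg adjustment over the 8338 genes. A gene was called at an adjusted p under 0.05, and a linear fold is given only where all 4 group means reached 5. The linear signals of the 17 hepatocyte markers with a probe set added up to a log2 level between 19.49 and 19.60 on WT arrays and 19.50 and 19.55 on CKO arrays, and none was under 5 on every array. In whole liver, fewer cells of a type and less RNA per cell cannot be told apart.

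Keap1 itself was lower on every CKO array. On one of its probe sets the WT arrays read 7.92, 8.32 and 8.89 (lowest, median, highest) and the CKO arrays 2.74, 2.88 and 3.31, a difference of -5.40 ± 0.10. The other probe set was the brighter over all 12 arrays and so stands for the gene in all counts. On it WT arrays read 6.58, 7.62 and 8.08 and CKO arrays 6.15, 6.37 and 6.51, a difference of -1.12 ± 0.19 (adjusted p = 0.0053). On WT arrays alone the first probe set was the brighter, so the counts use the one with the smaller difference. The genotypes did not overlap on either probe set, and whether the probes lie inside the deleted exons was not examined here. Nfe2l2, the gene of Nrf2, was also lower in CKO liver, by -0.62 ± 0.10 (adjusted p = 0.00448), with WT arrays from 10.47 to 11.24 and CKO arrays from 9.97 to 10.62. Of the other 12 tested genes of the sensor and its partner factors, none was called.

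Averaged over treatments, 786 of 8338 genes (9.43%) differed between the genotypes, 375 higher in CKO (4.5%) and 411 lower (4.93%). The values of 406 genes (4.87%) did not overlap between the 6 CKO and 6 WT arrays, with 199 higher in CKO (2.39%) and 207 lower (2.48%), and 359 of these were called. A change of at least 2-fold was seen in 124 called genes (1.49%), 66 higher and 58 lower. The last gene inside the threshold was Rcn2 (0.52, adjusted p = 0.0492) and the first outside was Maz (-0.35, adjusted p = 0.0501). In each of the 12 fits that left out 1 array, 401 of the 786 genes were called, 191 higher and 210 lower. The counts were lowest without CKO vehicle replicate 3 (226 higher, 248 lower) or CKO vehicle replicate 4 (243 and 262).

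The difference under vehicle and that under CDDO-Im rest on separate arrays and are set side by side here. Under vehicle 543 genes were called (6.51%), and 461 of them (84.9%) had the same sign under CDDO-Im. Under CDDO-Im 128 genes were called (1.54%), of which 113 (88.3%) had the same sign under vehicle, against 63.5% of all genes tested. Both contrasts called 62 genes, 11.4% of the first list and 48.4% of the second, 59 of them in the same direction. Across the 8338 genes the 2 differences correlated at r = 0.61, a description over genes, which are not independent. All 786 genes called on average had the same sign in both treatments, which the choice of genes by their average largely fixes. The median SE was 0.094 for the average and 0.129 within a treatment, and 382 of the 786 genes were called in neither treatment alone. The median difference of the 375 higher genes was 0.54 under vehicle and 0.41 under CDDO-Im, and that of the 411 lower genes was -0.53 and -0.44. In the other direction, 180 genes called under vehicle were not called on average.

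**Figure D1:**
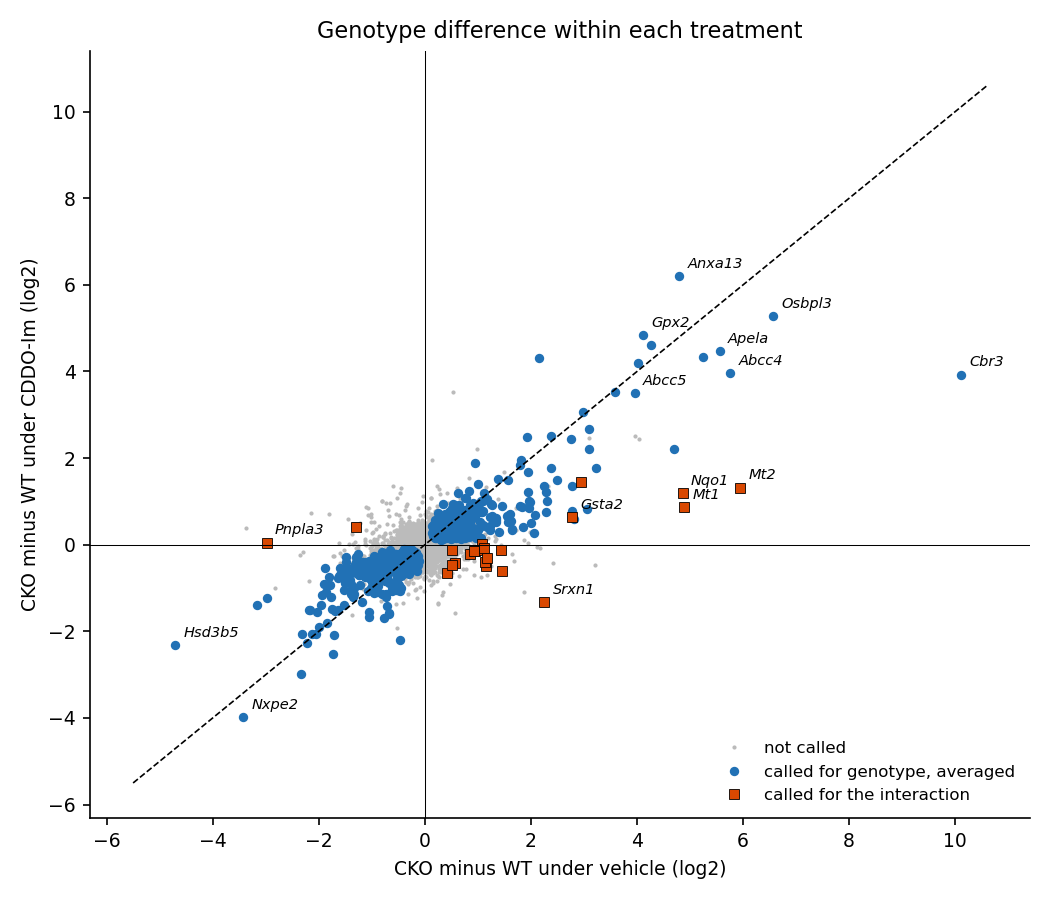
Each point is 1 of 8338 genes, with its CKO minus WT difference under vehicle on the x axis and under CDDO-Im on the y axis, both log2; the dashed line marks equal differences. Blue points were called for genotype on average, orange squares for the interaction and grey points for neither. Gpx2 and Abcc5 lie near the line, while the interaction genes Nqo1, Mt1 and Mt2 lie far to its right and Srxn1 lies below 0 under CDDO-Im.

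Most of the largest rises were in genes that were near the bottom of the scale in WT liver and stayed high in CKO liver under either treatment. Osbpl3, a lipid transfer protein of the oxysterol-binding family, read 2.23, 3.20 and 4.89 (lowest, median, highest) on WT arrays and 8.63, 9.19 and 9.57 on CKO arrays. Its difference was 5.92 ± 0.35 (adjusted p = 3.72e-06), 6.56 under vehicle and 5.28 under CDDO-Im. Slc1a1, which carries glutamate and cysteine into cells, lay between 2.62 and 2.66 on every WT array and between 6.24 and 7.51 on CKO arrays. The Slc1a1 difference was 4.44 ± 0.17 (adjusted p = 1.68e-07), with 4.27 under vehicle and 4.61 under CDDO-Im. Gpx2, a glutathione peroxidase best known from the gut, read 3.98, 4.40 and 6.17 on WT arrays and 8.25, 9.10 and 9.93 on CKO arrays, a difference of 4.48 ± 0.39 (adjusted p = 7.18e-05). In all 3 genes the genotypes did not overlap, and the difference under each treatment alone was called. Osbpl3 and Slc1a1 were under 5 on every WT array and passed the filter only through their CKO arrays. Apart from its highest WT array, at 6.17, Gpx2 was under 5 in WT as well, so it too passed the filter only with its CKO arrays. A high level in CKO was thus a condition of all 3 genes being tested.

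The other large rises came from genes of varied function. Anxa13, an annexin, rose by 5.50 ± 0.44 (adjusted p = 4.79e-05), from a WT range of 2.28 to 5.21 to a CKO range of 8.32 to 9.10. Apela, a ligand of the apelin receptor, rose by 5.01 ± 0.24 (adjusted p = 8.75e-07), from 2.36 to 2.66 on WT arrays to 6.79 to 8.79 on CKO arrays. Slc22a12, a urate transporter, rose by 4.79 ± 0.37, Tinag, a basement membrane glycoprotein, by 3.55 ± 0.29, and Pls1, an actin-bundling plastin of microvilli, by 3.02 ± 0.25. Heph, a ferroxidase that helps export iron from the gut, rose by 2.65 ± 0.25. For 10 of the 15 genes the WT mean was under 5, so that the size of the rise is set partly by the floor of the array. Apela, Slc22a12, Tinag, Pls1 and Heph were under 5 on every WT array and likewise passed the filter only through CKO arrays. Anxa13 was under 5 in WT apart from its highest array, at 5.21, and also needed its CKO arrays to pass. Serpinb1a, an inhibitor of neutrophil proteases, had a WT mean of 5.34 and rose by 4.11 ± 0.55 (adjusted p = 0.0017), from WT values of 3.72 to 6.96 to CKO values of 8.78 to 10.31.

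**Figure D2:**
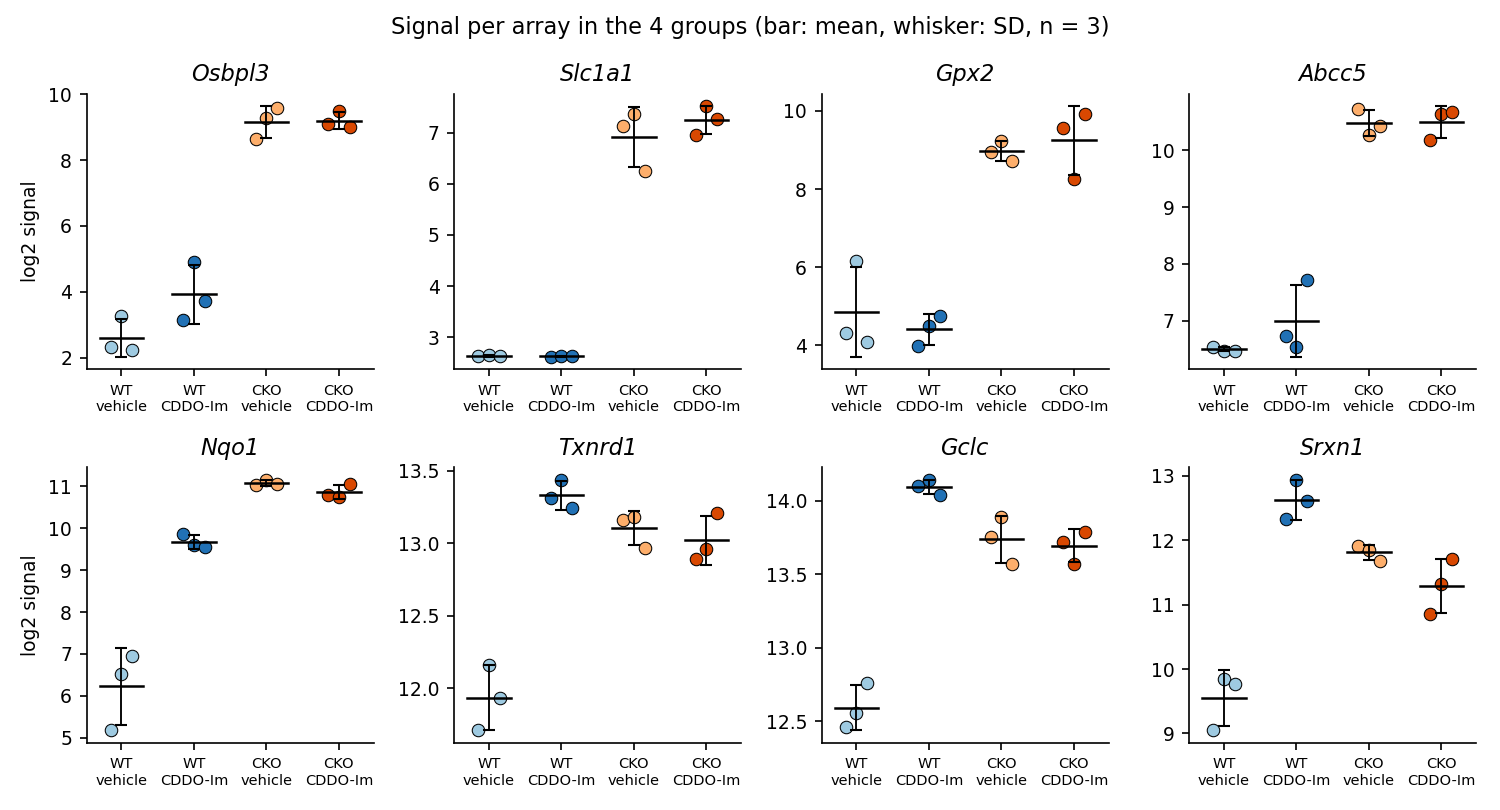
Points are the log2 signals of single arrays in the 4 groups, bars are means and whiskers SD (n = 3), and each panel has its own y axis, which does not start at 0. In the upper row (Osbpl3, Slc1a1, Gpx2, Abcc5) both CKO groups lie above both WT groups; in the lower row (Nqo1, Txnrd1, Gclc, Srxn1) WT CDDO-Im lies far above WT vehicle, and for the last 3 above every CKO array.

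Enzymes that reduce quinones and carbonyls held the largest rise of all. Of 28 tested genes for the reduction and oxidation of quinones, carbonyls and aldehydes, 7 rose and 2 fell, and the median difference was 0.14 against -0.01 over all genes. The shares called over all genes were 4.5% higher and 4.93% lower. Cbr3, a carbonyl reductase, read 3.01, 8.61 and 10.62 (lowest, median, highest) on WT arrays and 13.99, 14.34 and 14.99 on CKO arrays, a difference of 7.02 ± 1.10 (adjusted p = 0.00377). The wide WT range followed the drug: the WT vehicle arrays read 3.14, 7.16 and 3.01 and the WT CDDO-Im arrays 10.24, 10.05 and 10.62. Cbr1, the neighbouring carbonyl reductase, ran from 10.89 to 12.77 in WT and from 13.92 to 14.20 in CKO, 4.56-fold higher (2.19 ± 0.25, adjusted p = 0.000569). Nqo1, the NAD(P)H quinone reductase commonly used as a marker of Nrf2 activity, ran from 5.18 to 9.86 in WT and from 10.74 to 11.16 in CKO, 8.13-fold higher (3.02 ± 0.60, adjusted p = 0.0119). Blvrb, a biliverdin and flavin reductase, was 2.24-fold higher (1.16 ± 0.15, adjusted p = 0.0015) and Ptgr1, which reduces prostaglandin and aldehyde double bonds, rose by 1.21 ± 0.23 (adjusted p = 0.00986). The falls numbered 1 in 9 of the 12 fits without 1 array, all but those without WT CDDO-Im replicate 2 or 4 or CKO CDDO-Im replicate 2. Akr1c20, an aldo-keto reductase, fell by 0.40 on the log2 scale (SE 0.09, adjusted p = 0.0204). The genotypes did not overlap for Cbr3, Cbr1, Nqo1, Blvrb and Akr1c20.

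Glutathione S-transferases, which join glutathione to electrophiles, rose in 7 of 19 tested genes and fell in none, with a median of 0.28. The share called higher over all genes was 4.5%. Fits without 1 array called 5 to 8 of the transferases higher. Gstm3 ran from 11.84 to 14.74 on WT arrays and from 15.38 to 15.68 on CKO arrays, 3.43-fold higher (1.78 ± 0.37, adjusted p = 0.0147). Gsta2 was 3.26-fold higher (1.70 ± 0.34, adjusted p = 0.0127), Gstm2 2.82-fold (1.49 ± 0.18, adjusted p = 0.000853) and Gstm4 2.62-fold (1.39 ± 0.28, adjusted p = 0.0133). The 3 mu-class genes did not overlap between the genotypes, whereas the highest WT CDDO-Im array of Gsta2, at 12.53, passed the lowest CKO array, at 12.39. Genes within the mu class or within the alpha class are close in sequence, so neighbouring genes may share part of their probe signal.

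Glutathione synthesis itself differed little on average. Of 20 tested genes for glutathione synthesis and cysteine supply, 1 rose (Slc1a1) and 2 fell, Cbs (-0.45 ± 0.12) and Hagh (-0.23 ± 0.06), against 9.43% of all genes called. Both falls lost their call in 8 of the 12 fits without 1 array, at adjusted p up to 0.0729 for Cbs (without CKO CDDO-Im replicate 3) and 0.0746 for Hagh (without CKO vehicle replicate 3). Gclc and Gclm, the subunits of the enzyme that limits glutathione synthesis, differed by 0.37 ± 0.24 (adjusted p = 0.361) and -0.25 ± 0.14 (adjusted p = 0.294). The additive fit leaves unequal differences under the 2 treatments in the residual spread, which widens the SE of the average. In the fit of 4 group means the SE of Gclc within a treatment was 0.11. Among 23 tested thioredoxin, peroxiredoxin and peroxide enzymes, 2 rose, Gpx2 and Gpx4, the latter by 0.42 ± 0.08 (adjusted p = 0.0102). Of 19 genes of NADPH supply, 1 rose, the mitochondrial folate enzyme Mthfd1l, by 2.06 ± 0.30 (adjusted p = 0.00307). Mthfd1l was under 5 on every WT array and passed the filter only through CKO arrays. For peroxide enzymes and for NADPH supply the share called was below the 9.43% of all genes.

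Of 22 tested heme and iron genes 2 rose and 1 fell, with a median of -0.04, a share near the 9.43% of all genes. The risers were Blvrb and Slc48a1, a heme transporter of endosomes and lysosomes, which was 2.38-fold higher (1.25 ± 0.28, adjusted p = 0.0207). Hmox1, the inducible heme oxygenase, ranged from 6.31 to 8.32 in WT and from 6.62 to 7.91 in CKO, a difference of 0.16 ± 0.33 (adjusted p = 0.808). This average joins opposite signs, 1.05 under vehicle (adjusted p = 0.0557) and -0.74 under CDDO-Im (adjusted p = 0.229). Every CKO array was above every WT array under vehicle and below every WT array under CDDO-Im. The interaction of -1.79 ± 0.40 was not called (adjusted p = 0.136). Of 11 tested metallothionein and metal transport genes 3 rose and none fell, against 4.5% of all genes called higher. Mt2 and Mt1, metallothioneins that bind zinc and copper, were 12.4-fold (3.63 ± 0.78, adjusted p = 0.0173) and 7.33-fold higher (2.87 ± 0.68, adjusted p = 0.0242), with WT arrays that ran from 5.99 to 13.09 for Mt2 and from 7.75 to 13.44 for Mt1. The adjusted p of Mt1 was 0.0571, 0.0557 and 0.0522 in the fits that left out CKO vehicle replicate 3, then CKO vehicle replicate 4, then WT vehicle replicate 3. Slc39a4, a zinc importer, was 1.59-fold higher with no overlap (0.67 ± 0.10, adjusted p = 0.00307).

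For 23 genes (0.276%) the genotype difference under CDDO-Im differed from that under vehicle in the test of the interaction, and 858 had an unadjusted p under 0.05. All 23 were called under vehicle, 5 on average in the additive fit (Mt2, Mt1, Nqo1, Gsta2 and Cbr1) and 18 not. That fit leaves the interaction in the residual spread, which widens the SE of the average for such genes. The interaction was negative in 21 genes and positive in 2. Leaving out 1 array gave between 2 and 31 calls. There were 2 without CKO CDDO-Im replicate 2, 3 without CKO CDDO-Im replicate 3 or CKO vehicle replicate 3, 8 without WT CDDO-Im replicate 4 and 10 without WT CDDO-Im replicate 3. There were 11 without CKO vehicle replicate 5, 12 without WT CDDO-Im replicate 2, CKO vehicle replicate 4 or CKO CDDO-Im replicate 4, and 14 without WT vehicle replicate 1. The sign of all 23 was kept in the 12 fits, and Gclc and Srxn1 were called in all of them. The call was lost in 2 fits for Gsta2, 3 for Txnrd1, 8 for Nqo1, 9 for Cbr1 and Mt2 and 10 for Mt1.

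Srxn1, the sulfiredoxin that repairs overoxidised peroxiredoxins, showed the change of sign most clearly. The WT vehicle arrays read 9.05, 9.84 and 9.76 and the CKO vehicle arrays 11.91, 11.84 and 11.68, a difference of 2.25 (adjusted p = 0.001). The WT CDDO-Im arrays read 12.32, 12.94 and 12.61 and the CKO CDDO-Im arrays 10.86, 11.32 and 11.70, a difference of -1.33 (adjusted p = 0.0341). CKO liver was thus higher than WT on every vehicle array and lower on every drug array, with an interaction of -3.59 ± 0.36 (adjusted p = 0.0052) and an average of 0.46 ± 0.56 (adjusted p = 0.646).

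Gclc followed the same order at a smaller scale. It read 12.46, 12.56 and 12.76 in WT vehicle, 13.75, 13.89 and 13.57 in CKO vehicle, 14.10, 14.14 and 14.04 in WT CDDO-Im and 13.72, 13.57 and 13.79 in CKO CDDO-Im. The difference was 1.14 under vehicle (adjusted p = 0.000311) and -0.40 under CDDO-Im (adjusted p = 0.0895), with an interaction of -1.54 ± 0.15 (adjusted p = 0.0052). Txnrd1, thioredoxin reductase, differed by 1.17 under vehicle (adjusted p = 0.000823) and -0.31 under CDDO-Im (adjusted p = 0.25), an interaction of -1.48 ± 0.18 (adjusted p = 0.0138). Gclm reached an interaction of -0.80 ± 0.16 that missed the threshold (adjusted p = 0.0885), with -0.65 under CDDO-Im (adjusted p = 0.0224).

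In the 5 genes called on average as well, CKO liver stayed above WT under the drug but by less. Nqo1 differed by 4.86 under vehicle and 1.19 under CDDO-Im, where the WT arrays read 9.86, 9.59 and 9.56 and the CKO arrays 10.78, 10.74 and 11.05, an interaction of -3.68 ± 0.49 (adjusted p = 0.0187). Mt2 went from 5.94 to 1.32 (interaction -4.62 ± 0.78, adjusted p = 0.0492) and Mt1 from 4.89 to 0.86 (interaction -4.03 ± 0.65, adjusted p = 0.0411). Gsta2 went from 2.78 to 0.63 (interaction -2.15 ± 0.26, adjusted p = 0.0138) and Cbr1 from 2.94 to 1.44 (interaction -1.50 ± 0.22, adjusted p = 0.0306), and of the 5 only Cbr1 was called under CDDO-Im alone (adjusted p = 0.00253).

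Some interaction genes outside the naming rule were picked after their values were seen. Pgd, an NADPH-making enzyme of the pentose phosphate pathway, differed by 1.09 under vehicle and -0.13 under CDDO-Im. Ugdh, which makes UDP-glucuronate, differed by 1.11 and -0.07, and Gsr, glutathione reductase, by 0.85 and -0.21. Mafg, a small Maf partner of Nrf2, differed by 0.51 and -0.47, and Pir, pirin, by 1.44 and -0.11. The 2 positive interactions were those of Pnpla3, a lipid droplet protein with triglyceride hydrolase activity, and Tsc22d1, a leucine zipper protein. Pnpla3 read 6.20, 6.11 and 5.74 in WT vehicle, whereas no array of the other 3 groups passed 4.01. Its difference was -2.98 under vehicle and 0.05 under CDDO-Im. Only its WT vehicle arrays passed 5. Under CDDO-Im the WT arrays read 2.55, 2.26 and 2.46 and the CKO arrays 2.49, 2.46 and 2.46, near the lowest value of 2.22. A lower CKO level could not have been seen there, so this interaction cannot show whether genotype had an effect under the drug. Tsc22d1 differed by -1.30 under vehicle and 0.40 under CDDO-Im.

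Sequences upstream of start sites were searched for the core of the antioxidant response element, TGACNNNGC, on both strands (GCNNNGTCA on the other); a TGACTCA site followed by GC also matches it. Windows ran from 250 bases before to 50 after each RefSeq start (GRCm38.p6), and 4071 of 32851 windows (12.4%) held a match. Counted per gene, with all its starts, a match was found for 1196 of 6820 tested genes with a window (17.5%), 59 of 306 genes called higher (19.3%) and 63 of 344 called lower (18.3%). It was found for 10 of 19 genes with a negative interaction (52.6%), namely (by this search, not by the naming rule) Akr1c19, Ikbkg, Mafg, Mt2, Pgd, Pir, Ppfibp2, Srxn1, Txnrd1 and Ugdh. Among the 15 largest rises 11 had a window, and 1 of them, Abcc4, held a match (9.09%). These shares are descriptions with no test. The windows reach only 250 bases before a start, so an element farther upstream would be missed. Nqo1 and Cbr1, both called for the interaction, also held no match. The 250 bases before the start are shown for 3 interaction genes with a match (Txnrd1, Ugdh, Mt2), for Abcc4, and for Osbpl3 as a large rise with none. Capitals mark the matches.
Txnrd1 chr10:82858956-82859205 plus strand: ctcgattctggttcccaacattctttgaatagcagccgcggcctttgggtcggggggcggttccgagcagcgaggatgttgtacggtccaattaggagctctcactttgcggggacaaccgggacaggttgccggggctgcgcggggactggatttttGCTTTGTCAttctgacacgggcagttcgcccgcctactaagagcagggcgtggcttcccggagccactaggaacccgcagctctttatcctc
Ugdh chr5:65435843-65436092 minus strand: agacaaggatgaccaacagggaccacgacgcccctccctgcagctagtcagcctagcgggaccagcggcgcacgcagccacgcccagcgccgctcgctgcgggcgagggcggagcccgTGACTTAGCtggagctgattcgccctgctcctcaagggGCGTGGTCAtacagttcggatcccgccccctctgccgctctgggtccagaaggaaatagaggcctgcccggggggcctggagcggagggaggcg
Mt2 chr8:94172368-94172617 plus strand: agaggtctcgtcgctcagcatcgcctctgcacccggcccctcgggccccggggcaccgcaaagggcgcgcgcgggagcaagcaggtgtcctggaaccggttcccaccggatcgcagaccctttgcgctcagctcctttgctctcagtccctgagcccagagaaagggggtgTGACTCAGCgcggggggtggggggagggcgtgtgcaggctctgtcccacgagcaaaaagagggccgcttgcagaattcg
Abcc4 chr14:118676932-118677181 minus strand: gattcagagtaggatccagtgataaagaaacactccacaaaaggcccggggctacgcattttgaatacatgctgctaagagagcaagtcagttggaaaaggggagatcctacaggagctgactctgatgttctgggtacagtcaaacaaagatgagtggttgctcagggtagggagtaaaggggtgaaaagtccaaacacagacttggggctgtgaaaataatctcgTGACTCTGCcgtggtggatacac
Osbpl3 chr6:50456171-50456420 minus strand: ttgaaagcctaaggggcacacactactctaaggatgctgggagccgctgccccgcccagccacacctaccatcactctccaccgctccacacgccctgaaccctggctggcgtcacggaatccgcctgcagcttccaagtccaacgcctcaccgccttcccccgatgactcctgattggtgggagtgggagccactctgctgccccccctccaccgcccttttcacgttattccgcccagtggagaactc
The match begins 92 bases before the start in Txnrd1 (the second of its 3 starts), 79 in Mt2 and 23 in Abcc4. The Abcc4 start shown is the downstream one of its 2 starts, as the gene lies on the minus strand. The upstream start of Abcc4 (chr14:118706220-118706469) holds a match of its own, GCGGGGTCA, which begins at 25 bases. The Ugdh matches, 1 on each strand, begin at 132 and 94 bases.

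Exporters of organic anions were among the larger rises. Of 24 tested ABC efflux transporters, which include lipid and mitochondrial transporters, 6 rose and 3 fell, with a median of 0.10. The share called was above the 9.43% of all genes. Fits without 1 array called 4 to 6 higher and 2 to 3 lower. Abcc4 (Mrp4), which exports organic anions across the basolateral membrane, read 5.03, 6.00 and 7.57 (lowest, median, highest) on WT arrays and 10.82, 11.02 and 11.09 on CKO arrays. Its level was 29.1-fold higher (4.86 ± 0.33, adjusted p = 1.26e-05), with 5.76 under vehicle and 3.96 under CDDO-Im. Abcc5 (Mrp5), an exporter of organic anions and nucleotides, was 13.3-fold higher (3.73 ± 0.19, adjusted p = 1.46e-06), at 6.48 to 7.71 on WT arrays and 10.17 to 10.72 on CKO arrays. Abcc3 (Mrp3) was 1.5-fold higher (0.59 ± 0.10, adjusted p = 0.00534), with 1 CKO array, at 12.89, inside the WT range. Abcc12, a family member of unsettled function that was not in the list, rose by 2.89 ± 0.24 (adjusted p = 4.79e-05). It was under 5 on every WT array and passed the filter only through CKO arrays.

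Abcg5, which passes sterols into bile, differed by 0.78 ± 0.21 (adjusted p = 0.0448), a call lost in 10 of the 12 fits without 1 array (adjusted p up to 0.096, without WT CDDO-Im replicate 3). Of the ABC transporters that fell, Abcb4, the phosphatidylcholine floppase of bile, was 1.3-fold lower (-0.38 ± 0.08, adjusted p = 0.0148) and Abcb10, of the mitochondrial inner membrane, 1.44-fold lower (-0.52 ± 0.07, adjusted p = 0.00131). Abcb11, the bile salt export pump, differed by -0.41 ± 0.10 (adjusted p = 0.0294), a call lost in 8 of the 12 fits without 1 array (adjusted p up to 0.0627, without CKO vehicle replicate 3). Of 13 tested organic anion and cation uptake genes 2 rose, Slc22a12 and Slc22a18, and 2 fell, against 9.43% of all genes called in either direction. Slco1a1 (Oatp1a1) was 3.55-fold lower (-1.83 ± 0.24, adjusted p = 0.0015), at 13.03 to 13.63 in WT and 10.59 to 12.24 in CKO. Slc22a7 (Oat2), which takes up organic anions, was 2.79-fold lower (-1.48 ± 0.33, adjusted p = 0.0202), with 1 WT array, at 8.78, inside the CKO range.

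Among the largest falls, Nxpe2 read 7.56, 7.92 and 8.01 (lowest, median, highest) on WT arrays and 3.65, 3.84 and 5.02 on CKO arrays, a difference of -3.70 ± 0.21 (adjusted p = 3.41e-06) that was -3.42 under vehicle and -3.98 under CDDO-Im. Tmem19 was 4.25-fold lower (-2.09 ± 0.14, adjusted p = 1.26e-05), with WT arrays at 11.16 to 11.72 and CKO arrays at 8.90 to 9.60. Mn1, a transcriptional coregulator, read 5.17 to 6.57 on WT arrays and fell by 2.26 on the log2 scale (SE 0.21, adjusted p = 0.000177). Spsb4, an adaptor of a ubiquitin ligase, read 6.30 to 7.89 on WT arrays and 4.57 to 5.83 on CKO arrays and fell by 1.90 on the log2 scale (SE 0.21, adjusted p = 0.000528). Gas1, a membrane protein of hedgehog signalling and growth arrest, was 4.56-fold lower (-2.19 ± 0.28, adjusted p = 0.00149), Avpr1a, the vasopressin receptor of hepatocytes, 4.38-fold (-2.13 ± 0.32, adjusted p = 0.00311) and Cadps2, a factor of vesicle release, 4.15-fold (-2.05 ± 0.20, adjusted p = 0.000249). Igfbp2, a secreted binding protein for insulin-like growth factors, was 3.54-fold lower (-1.82 ± 0.30, adjusted p = 0.00455), at 12.93 to 13.73 in WT and 10.52 to 12.13 in CKO. The genotypes did not overlap in any of these 8 genes. Mn1 was under 5 on every CKO array, and Nxpe2 on every CKO array but its highest, so both passed the filter only with their WT arrays.

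Some of the genes that male liver expresses above female liver were lower in CKO. Of 25 tested male-biased genes 10 fell, a larger share than the 4.93% of all genes, and none rose. The median was -0.70, which was -0.81 under vehicle and -0.32 under CDDO-Im, and fits without 1 array called 7 to 10. Hsd3b5, a steroid dehydrogenase of male liver, read 11.03, 12.07 and 13.47 (lowest, median, highest) on WT arrays and 6.27, 9.18 and 10.36 on CKO arrays, 11.4-fold lower (-3.52 ± 0.70, adjusted p = 0.012). Elovl3, a fatty acid elongase, was 4.84-fold lower (-2.28 ± 0.47, adjusted p = 0.0144), with WT values of 10.51 to 12.27 and CKO values of 7.29 to 10.01. Slco1a1 and the complement gene C6 belong to the same list, and C6 was 2.35-fold lower (-1.23 ± 0.23, adjusted p = 0.00906). Sult5a1, a sulfotransferase, was 2.21-fold lower (-1.14 ± 0.22, adjusted p = 0.0108). Cyp4a12a, a male-specific P450 added after its values were seen, differed by 0.15 ± 0.19 (adjusted p = 0.67), so the list did not move as a whole.

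Of 11 tested female-biased genes 2 rose, Rtn4, a reticulon of the endoplasmic reticulum, and Lpl, lipoprotein lipase, and none fell. The share called higher over all genes was 4.5%. Rtn4 was 2.05-fold higher (1.04 ± 0.23, adjusted p = 0.0195). Lpl was 1.62-fold higher (0.69 ± 0.19, adjusted p = 0.0399), a call lost in 8 of the 12 fits without 1 array (adjusted p up to 0.0834, without WT CDDO-Im replicate 2). In the growth hormone and IGF axis, 1 of 17 tested genes rose (Igfbp3, 0.63 ± 0.15, adjusted p = 0.0223) and 3 fell, Igfbp2, Igf1 (-0.32 ± 0.07, adjusted p = 0.0155) and Ghr (-0.47 ± 0.11, adjusted p = 0.026). Calls in either direction made up 9.43% of all genes. The Ghr call was lost in 7 of the 12 fits, at adjusted p up to 0.0614 without CKO vehicle replicate 3. Hsd3b2, a steroid dehydrogenase, was 3.06-fold lower (-1.62 ± 0.26, adjusted p = 0.00406), but Hsd3b genes are close copies whose probes can share signal.

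Interferon response genes held the largest share of falls among the lists. Of 33 tested genes 21 fell, a larger share than the 4.93% of all genes, none rose and 12 were not called. The median was -0.74, with -1.01 under vehicle and -0.51 under CDDO-Im. Rtp4, an interferon-induced chaperone of membrane receptors, read 9.59, 10.52 and 11.16 (lowest, median, highest) on WT arrays and 8.14, 8.69 and 9.50 on CKO arrays, 3.58-fold lower (-1.84 ± 0.28, adjusted p = 0.0036). Usp18, which removes ISG15 and damps interferon signalling, ran from 9.35 to 10.63 in WT and from 7.92 to 9.09 in CKO, 2.8-fold lower (-1.49 ± 0.21, adjusted p = 0.00257). Ifit3, an interferon-induced antiviral protein, was 2.43-fold lower (-1.28 ± 0.29, adjusted p = 0.021), and Irf9, the DNA-binding part of the interferon-activated factor, named after its values were seen, 2.41-fold lower (-1.27 ± 0.14, adjusted p = 0.000569). The genotypes did not overlap in these 4 genes. Ifit1 had the largest difference, -2.10 ± 0.58 (adjusted p = 0.0446), and lost its call in 10 of the 12 fits without 1 array, at adjusted p up to 0.0915 without WT vehicle replicate 2. Trim30d and H2-Q5, outside the list, were 3.06-fold (-1.62 ± 0.21, adjusted p = 0.0015) and 2.96-fold lower (-1.57 ± 0.13, adjusted p = 4.79e-05), though class I major histocompatibility genes such as H2-Q5 are near copies. The count of 21 was 11 without CKO CDDO-Im replicate 4, 12 without CKO vehicle replicate 4 and 13 without WT vehicle replicate 1 or 2, and none of the list rose in any of the 12 fits. Of the lymphocyte markers 12 of 13 were under 5 on every array, and the summed level of the macrophage markers ran from 13.11 to 14.04 on WT and 13.48 to 14.08 on CKO arrays; their part in the result was not tested.

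**Figure D3:**
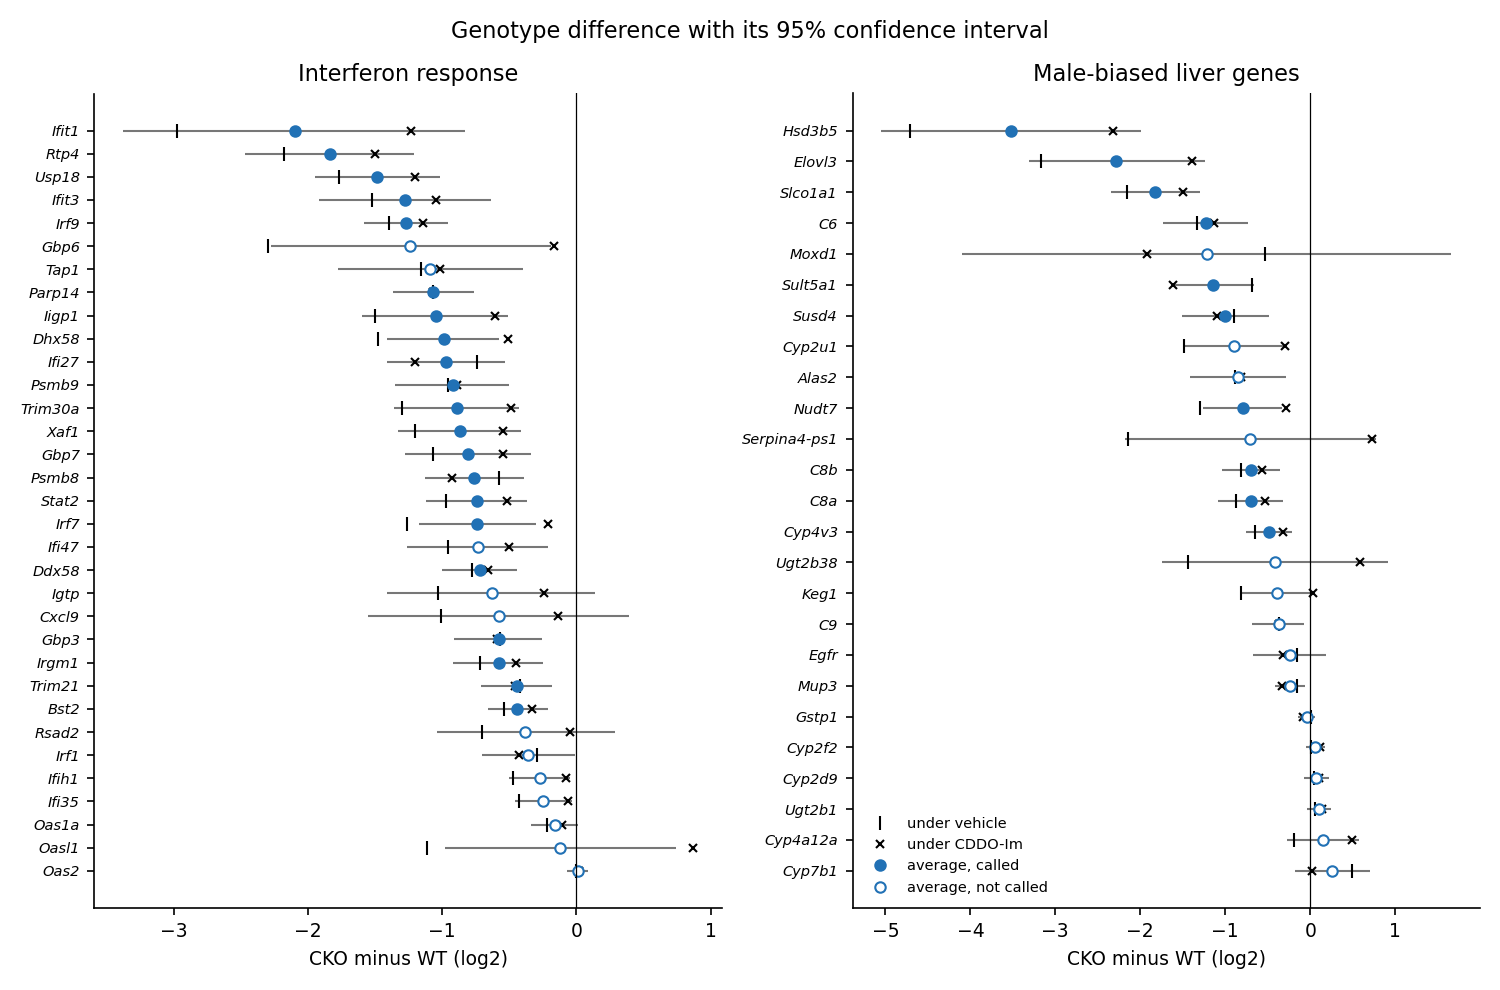
Every tested gene of the interferon list (left) and the male-biased list (right), with the average CKO minus WT difference (circle, filled where called), its 95% confidence interval and the difference under vehicle (bar) and CDDO-Im (cross), all log2. In the left panel 32 of 33 averages lie below 0, and in the right panel 20 of 25.

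A minority of the genes of lipid synthesis fell in CKO liver, while the fatty acid transporter gene Cd36 rose. Of 32 tested genes of fatty acid and triglyceride synthesis 7 fell and none rose, against 4.93% of all genes called lower. Fits without 1 array called 5 to 9 lower. The median was -0.38, which was -0.71 under vehicle and -0.07 under CDDO-Im. Of 21 cholesterol genes 5 fell, also a larger share than over all genes, and none rose. Their median was -0.53, which was -0.71 under vehicle and -0.38 under CDDO-Im. No gene of either list was called in the contrast under CDDO-Im. Fads1, a desaturase of polyunsaturated fatty acids, read 11.50 to 12.36 in WT and 10.28 to 11.23 in CKO, 2.43-fold lower with no overlap (-1.28 ± 0.19, adjusted p = 0.00319). Elovl5, the elongase acting on the same fatty acids, was 1.9-fold lower (-0.92 ± 0.20, adjusted p = 0.0156). Insig1, which retains SREBP in the endoplasmic reticulum, was 2.24-fold lower (-1.16 ± 0.22, adjusted p = 0.00995), and Stard4, a cholesterol carrier, 2.22-fold lower (-1.15 ± 0.23, adjusted p = 0.0122). Fdps, an enzyme of the mevalonate pathway, was 2.23-fold lower (-1.15 ± 0.32, adjusted p = 0.0463), a call lost in all 12 fits without 1 array (adjusted p up to 0.0971, without CKO CDDO-Im replicate 3). The 5 cholesterol calls were 2 without CKO vehicle replicate 3 or 4, and 3 without WT vehicle replicate 3, WT CDDO-Im replicate 3 or CKO vehicle replicate 5, and 1 gene of fatty acid synthesis rose without the last of these.

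Cd36, a fatty acid translocase, read 7.48, 8.71 and 9.45 (lowest, median, highest) on WT arrays and 10.78, 11.17 and 11.39 on CKO arrays, 6.07-fold higher (2.60 ± 0.28, adjusted p = 0.000429), with 2.76 under vehicle and 2.44 under CDDO-Im. Pparg, the nuclear receptor of fat storage, was 2.14-fold higher (1.10 ± 0.15, adjusted p = 0.00238), at 6.57 to 7.41 in WT and 7.93 to 8.18 in CKO, and both genes separated the genotypes without overlap. Of 37 tested genes of fatty acid oxidation 2 rose, Cd36 among them, and 1 fell, a share called below the 9.43% of all genes. The fall was that of Fabp1, the liver fatty acid carrier, by 0.54 on the log2 scale (SE 0.13, adjusted p = 0.0261). Its call was lost in 5 of the 12 fits, at adjusted p up to 0.0613 without CKO vehicle replicate 3. Of 23 genes of glucose metabolism 1 rose and 3 fell, against 9.43% of all genes called in either direction. Among the falls was Pfkl, a glycolytic phosphofructokinase, 1.53-fold lower without overlap (-0.62 ± 0.10, adjusted p = 0.00411).

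Drug metabolism outside the transferases and reductases changed in single genes. Of 41 tested P450 genes 2 rose and 2 fell, a share of either direction close to the background of 9.43%. Cyp2b10, the classic target of the receptor CAR, differed by 2.08 ± 0.57 (adjusted p = 0.0429), with WT arrays from 3.61 to 7.41 and CKO arrays from 7.39 to 8.56, and lost its call in 8 of the 12 fits (adjusted p up to 0.0908, without CKO vehicle replicate 4). Ces1g, a carboxylesterase, was 2.8-fold higher without overlap (1.48 ± 0.36, adjusted p = 0.0266), but its adjusted p was 0.057, 0.0622 and 0.0541 without CKO vehicle replicates 3, 4 and 5 in turn. Sult2a8, a bile acid sulfotransferase of mouse liver, was 1.68-fold lower without overlap (-0.75 ± 0.15, adjusted p = 0.0124). Among 31 acute phase genes 4 rose, against 4.5% of all genes, and fits without 1 array called 2 to 4. The 4 were the metallothioneins Mt1 and Mt2, Cebpd and Orm3. Orm3, an orosomucoid, was 3.98-fold higher without overlap (1.99 ± 0.32, adjusted p = 0.00426). Of 35 coagulation and complement genes 5 fell, a larger share than the 4.93% of all genes, and none rose. C6 and C8b (-0.70 ± 0.16, adjusted p = 0.0204) were among the 5. The 5 were 3 when WT vehicle replicate 1, 2 or 3, WT CDDO-Im replicate 2 or CKO CDDO-Im replicate 3 or 4 was left out, and 1 rose without WT vehicle replicate 1.

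Several groups showed few or no differences. None of 16 circadian clock genes was called, nor was any in the 12 fits without 1 array. Of 37 proteasome genes 1 rose, Psmb5 (0.39 ± 0.10, adjusted p = 0.0319, lost in 8 of the 12 fits, up to 0.0732 without CKO vehicle replicate 3). Of 20 heat shock genes 1 rose, Dnajb9, a chaperone of the endoplasmic reticulum, 1.74-fold higher without overlap (0.80 ± 0.12, adjusted p = 0.00358). Of 39 genes of the urea cycle and amino acid catabolism 3 fell, among them Slc25a13, the mitochondrial aspartate carrier (-0.44 ± 0.09, adjusted p = 0.0154). Over the 12 fits, the proteasome rises ranged from 0 to 1 and the falls among urea cycle and amino acid genes from 1 to 4. These shares lie below the 9.43% of all genes.

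**Figure D4:**
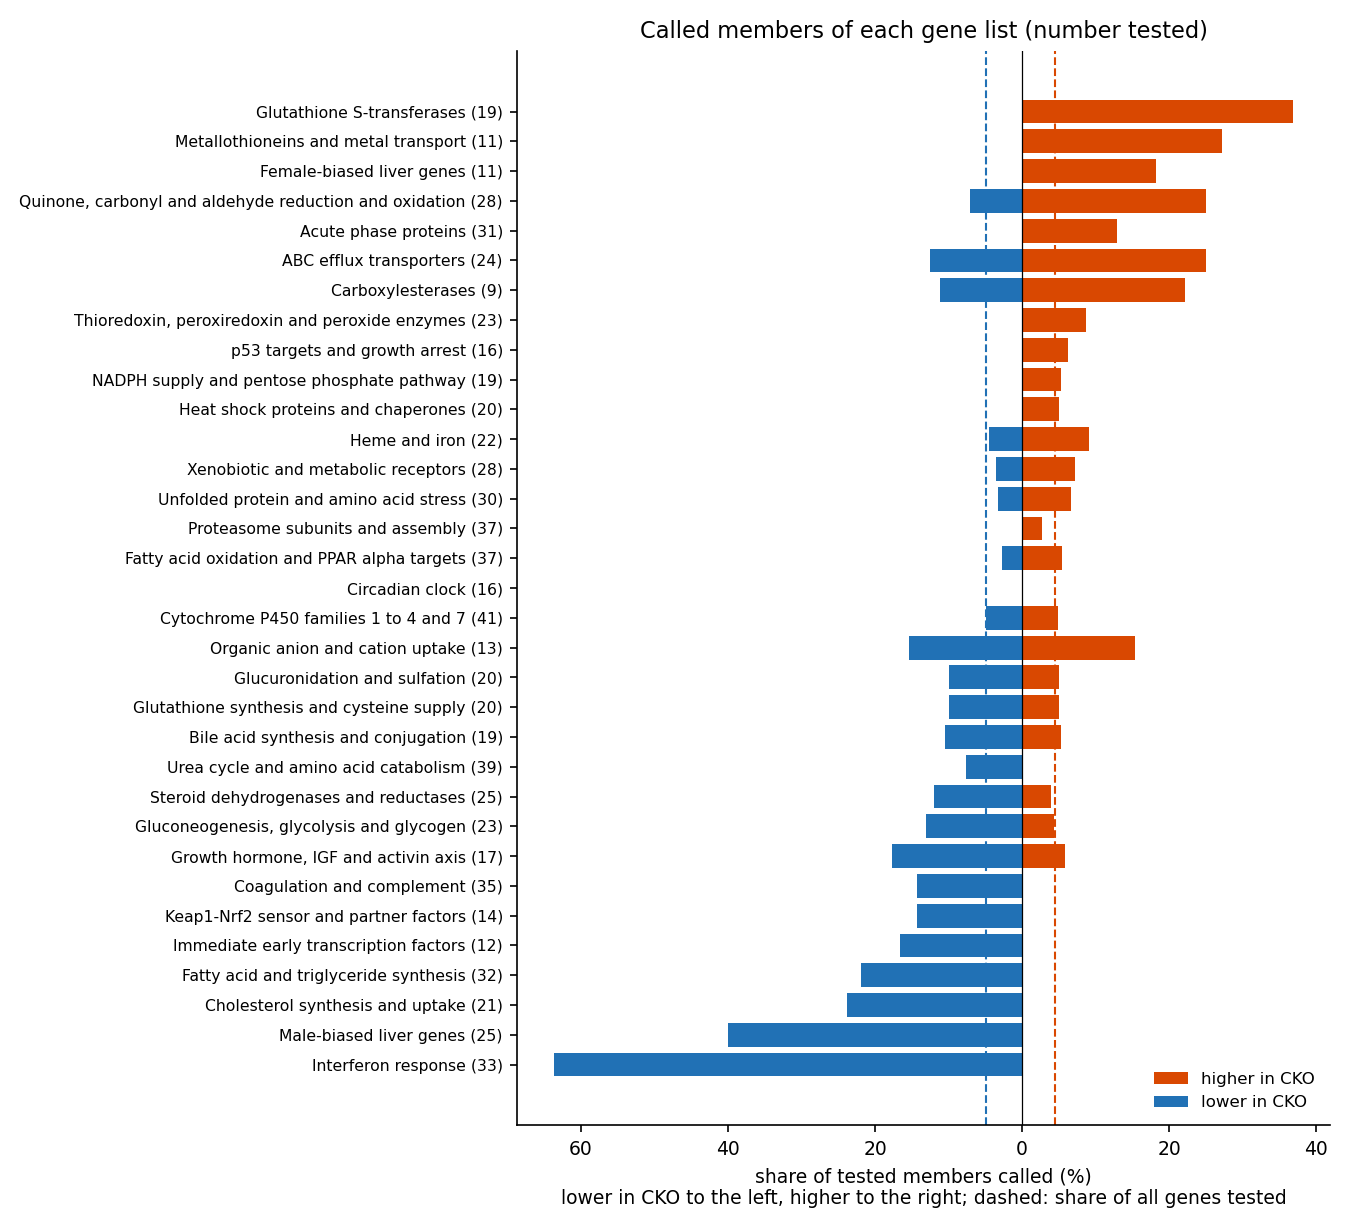
Share of the tested genes of each pathway or function list (cell type markers are not drawn) called lower (left of 0) or higher (right of 0) in CKO, in percent, with the number tested in brackets and dashed lines at the shares over all genes (4.93% and 4.5%). Interferon genes (21 of 33) and male-biased genes (10 of 25) reach farthest left, and glutathione S-transferases (7 of 19) farthest right.

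The larger number of arrays brought in genes that neither treatment called alone. The largest was Slc3a1, a subunit of the cystine transporter of kidney and gut, with WT arrays at 7.84, 8.82 and 9.91 (lowest, median, highest) and CKO arrays at 5.19, 5.63 and 8.43. Its average difference was -2.65 ± 0.58 (adjusted p = 0.0178), against -2.33 under vehicle (adjusted p = 0.132) and -2.98 under CDDO-Im (adjusted p = 0.112), and 1 CKO array lay inside the WT range. Enho, which encodes the peptide adropin, was 3.84-fold lower across overlapping ranges (-1.94 ± 0.40, adjusted p = 0.0135). Mup10, a major urinary protein with many near-identical relatives, was 3.2-fold lower (-1.68 ± 0.36, adjusted p = 0.0171). Nab2, a corepressor of early growth response factors, fell by 1.30 on the log2 scale (SE 0.26, adjusted p = 0.0119) and Ccnf, cyclin F, was 2.39-fold lower (-1.25 ± 0.29, adjusted p = 0.0219), both without overlap. Akap12, a scaffold for protein kinase A, rose by 1.53 ± 0.34 (adjusted p = 0.0199) from 3.25 to 3.67 on WT arrays to 3.98 to 6.19 on CKO arrays. Akap12 was under 5 on every WT array and passed the filter only through CKO arrays. Its call was lost after quantile normalization (1.06, adjusted p = 0.127). Nab2 in turn needed its WT arrays to pass the filter. Hapln4, a link protein of the extracellular matrix, was 2.58-fold lower without overlap (-1.37 ± 0.28, adjusted p = 0.0129). Zfand4 was 2.55-fold lower (-1.35 ± 0.34, adjusted p = 0.0334), a call lost in 8 of the 12 fits without 1 array (adjusted p up to 0.0715, without CKO vehicle replicate 4).

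Several called members of the lists had small margins. Of 12 immediate early transcription factors 2 fell, against 4.93% of all genes. Jun fell without overlap (-0.94 ± 0.26, adjusted p = 0.0454) and Jund with overlap (-0.49 ± 0.12, adjusted p = 0.0258). The 2 calls were lost in 10 and 6 of the 12 fits without 1 array (adjusted p up to 0.0989 and 0.0614, both without CKO vehicle replicate 3). Ddit4, a stress-induced inhibitor of mTORC1, read 7.47, 9.92 and 12.20 (lowest, median, highest) on WT arrays and 11.07, 11.48 and 12.79 on CKO arrays, a difference of 1.94 ± 0.54 (adjusted p = 0.0456) with wide overlap. Cebpd, a transcription factor of the acute phase, differed by 1.01 ± 0.28 (adjusted p = 0.0429). These calls were lost in 9 and 8 fits, at adjusted p up to 0.1 and 0.096 without CKO vehicle replicate 3. Pklr, the liver pyruvate kinase, differed by -0.88 ± 0.23 (adjusted p = 0.0379), Ldha, lactate dehydrogenase, by -0.42 ± 0.11 (adjusted p = 0.0364) and Aox3, an aldehyde oxidase, by -0.71 ± 0.19 (adjusted p = 0.0396), all with overlap. Their calls were lost in 9, 10 and 10 fits, at adjusted p up to 0.0853 (without CKO vehicle replicate 3), 0.0795 (without WT CDDO-Im replicate 3) and 0.0833 (without CKO vehicle replicate 4).

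Markers of other cell types differed in single genes. Of the 13 tested macrophage markers 1 rose, a share below the 9.43% of all genes. It was the scavenger receptor Marco, by 1.65 ± 0.36 (adjusted p = 0.0194). Of 16 endothelial markers 2 rose, against 4.5% of all genes, and fits without 1 array called 1 to 3 higher. Lyve1, a hyaluronan receptor of sinusoidal endothelium, read 5.01, 7.34 and 8.84 on WT arrays and 7.52, 9.11 and 9.93 on CKO arrays, 3.47-fold higher with overlap (1.79 ± 0.34, adjusted p = 0.00936). The endothelial markers together summed to between 12.43 and 12.75 on WT arrays and 12.52 and 12.93 on CKO arrays. Of 8 neutrophil markers with a probe set 7 were under 5 on every array. Of the 10 tested genes on each side of Keap1 in gene order, 20 in all, 3 were called (15%), all lower: Col5a3 (-1.01 ± 0.13), Shfl (-0.62 ± 0.15) and Carm1 (-0.32 ± 0.09), named after their values were seen. With 20 genes on each side 4 of 40 were called (10%), close to the share over all genes.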

How the data were processed

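Total RNA of 12 livers was hybridised to 12 Affymetrix mouse arrays. The deposited log2 values, 1 per probe set and array for 45101 probe sets, come from GCRMA 2.12.1, run under R 2.7.0, as the submitters' processing notes name them; its settings are not given in the labels. GCRMA subtracts background by probe sequence and compresses dim probe sets onto a floor, which bounds how far a gene can be seen to fall.

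Of the probe sets, 34945 name 1 gene in the platform annotation, 932 name several and 9160 none, and 64 controls were left out. A gene is the brightest of its probe sets over all arrays. limma 3.58.1 in R 4.3.3 fitted genotype and treatment as additive factors to all 12 arrays (9 residual degrees of freedom, a prior of 2.27, and a residual SD of 0.168 in the median gene), and 4 group means for the interaction and the contrasts within treatments. The method was tested on simulated data. The labels number the arrays as replicates of a group, so p-values measure the spread between these samples, and the number of arrays limits the precision. The labels do not say what a replicate number marks. Deviations of same-numbered WT and CKO arrays correlated at 0.136, 0.127, 0.078 and 0.146; as 1 of the 4 was not above 0.1, the numbers were not taken as pairs, and the block is an alternative.

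Members, gene lists and naming rule were chosen with earlier results of these data known. Genes named by the text were drawn, without using all of them, from the 15 largest called rises and falls without overlap, the largest called members of each list (up to 4 rises and 3 falls), 12 known Nrf2 pathway genes, the genes called for both genotype and interaction, and the 10 largest genes called in neither treatment alone. Predicted genes were left out. Promoter sequences are from RefSeq.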

Additional observations from a re-analysis of the deposited data

Results flagged for a closer look

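In 24 of 262 sets of 6 arrays of 1 genotype, for the named genes, 1 array stood apart from the other 5; chance flags about 1 in 20 such sets. Among rises, WT vehicle replicate 2 stood high for Anxa13 (5.21, nearest array 3.27) and Gpx2 (6.17, nearest 4.74), WT CDDO-Im replicate 4 for Abcc5 (7.71, nearest 6.74) and Heph (3.23, nearest 2.64), and WT vehicle replicate 3 for Slc22a12 (3.60, nearest 3.45). Pls1 stood high on CKO vehicle replicate 4 (6.72) and Heph low on CKO CDDO-Im replicate 4 (4.16). Among falls, Avpr1a (6.20) and Sult5a1 (7.12) stood low on WT vehicle replicate 2, Mn1 low on WT vehicle replicate 3 (5.17), and Trim30d low on CKO vehicle replicate 3 (4.36).

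For transporters and lipid genes, Abcb11 stood low on CKO CDDO-Im replicate 4 (12.12), Abcc3 low on CKO vehicle replicate 3 (12.89), Fabp1 low on WT CDDO-Im replicate 2 (14.56), Fdps high on WT vehicle replicate 1 (12.21) and Lpl high on CKO CDDO-Im replicate 2 (11.32). Ces2g stood high on CKO vehicle replicate 4 (10.07), and Cyp4f14 (12.76) and Pdia4 (11.21) low on WT CDDO-Im replicate 4. Cela1, a marker of pancreatic acinar cells, stood high on CKO vehicle replicate 3 (9.35). Epcam, a marker of cholangiocytes, differed from an otherwise constant floor on WT CDDO-Im replicate 3 (7.39) and CKO CDDO-Im replicate 2 (7.28), as did Ighm, a marker of lymphocytes, on WT vehicle replicate 1 (7.83) and CKO vehicle replicate 3 (8.02). WT vehicle replicate 2, WT CDDO-Im replicate 4 and CKO vehicle replicate 3 each stood apart 4 times.

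In 8 named genes the test of the interaction found that the CKO minus WT difference under CDDO-Im was lower than that under vehicle. The interaction was -4.62 for Mt2, -4.03 for Mt1, -3.68 for Nqo1, -3.59 for Srxn1, -2.15 for Gsta2, -1.54 for Gclc, -1.50 for Cbr1 and -1.48 for Txnrd1.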

How the results depend on the processing

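The counts of 375 genes higher and 411 lower became 157 and 162 with no filter on low values (18193 genes tested), which kept 310 of the 786 calls, and 66 and 58 with a minimum of 2-fold. With the replicate number as a block they were 130 and 182, keeping 248 of the 786 calls. Of the 120 called among the 131 named genes, 67 lost their call. Whether the numbers pair the samples is not known from the labels, and 3 of 4 same-number correlations were over 0.1. Leaving out 1 array gave 226 to 361 higher and 248 to 397 lower. The average taken from the fit of 4 group means gave 424 higher and 456 lower, with 751 of the 786 calls kept. Among the named genes 2 gained a call there and 2 lost theirs. Interaction calls, 23, were 7 with no filter, 3 with the replicate block and 2 to 31 without 1 array. Higher genes made up 47.7% of the calls, 51.4% after quantile normalization and 53.7% after median centring. No sign changed among the 786 genes except for 4 when probe sets were averaged. Of genes not called, Hmox1 was -0.07 and Srxn1 -0.19 with the replicate block, and without 1 array Cela1 ran from -0.09 to 0.10, Epcam from -0.03 to 0.00 and Hmox1 from -0.01 to 0.41. Rxra, called lower, was 0.01 when its probe sets were averaged. The cause was not tested. Genes at the floor of the array limit the size of differences.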
